A study of Rattus norvegicus with 71 samples.

Results

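The choroid plexus genes are 34 genes of the epithelium that lines the choroid plexus, taken by symbol from a list of its markers, secreted proteins and transporters. Of the 34, 33 had a row among the 17494 genes of the deposited rat count table, and Vat1l had none. All 33 passed the filter on low counts, which kept 12816 genes. The RNA came from 1 coronal brain slice, 150 um thick by the labels, from each of 71 wild-type rats at postnatal day 2, and the slice was cut to hold the hippocampus with cortical and subcortical structures. The rats differed in what their dams had been given before pregnancy. Dams of MARA-AB exposed offspring had received synthetic peptides in Freund's adjuvant, and each autoantibody pattern is called by the proteins those peptides came from. Dams of saline controls received adjuvant and saline, so that adjuvant was common to all groups. CRMP1 and CRMP2 are collapsin response mediator proteins, GDA is guanine deaminase, STIP1 is stress-induced phosphoprotein, NSE is neuron-specific enolase and LDHA/B are the lactate dehydrogenase subunits.

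The samples fell into 7 groups, since the study processed and sequenced them as 2 experimental batches, which the sample titles separate here. Batch 1 held 12 saline controls from 3 litters and 16 LDHA/B+CRMP1+STIP1-exposed offspring from 4 litters. Batch 2 held 12 saline controls from 4 litters, 9 LDHA/B+CRMP1+STIP1 from 5 litters, 8 CRMP1+CRMP2 from 4 litters, 6 CRMP1+GDA from 3 litters and 8 STIP1+NSE from 4 litters. Exposure was given to the dam, so littermates are not independent, and the fits that count each animal were repeated with the litter as a random effect. Library totals ran from 24880182 to 36234952 counts with a median of 28439195, so that 1 CPM, a count scaled by the library total, stood for 24.9 to 36.2 counts. Of counts between 1 and 9, 74.5% were even, so low values rest on fewer fragments than counts.

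The choroid plexus is a sheet of specialised ependymal cells, folded over leaky capillaries, that hangs into the brain ventricles. Its epithelium makes cerebrospinal fluid by moving ions, bicarbonate and water from blood to ventricle, seals the blood-cerebrospinal fluid barrier with tight junctions, and secretes carrier and signalling proteins into the fluid. At the level of the hippocampus it lies in the lateral ventricles and along the roof of the midline ventricle. In bulk RNA from a slice, fewer choroid plexus cells and less RNA per choroid plexus cell cannot be told apart.

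Per length, the genes spanned a wide range in the 43 slices of batch 2. The median of Ttr, which encodes the thyroid hormone carrier transthyretin, was 1389 RPKM, which is CPM per kilobase of exon. The next were Igfbp2, which binds insulin-like growth factors, at 178 RPKM and Enpp2, the lysophosphatidic acid-producing enzyme autotaxin, at 24.3 RPKM. All other members had medians of at most 11.9 RPKM, the value of the cation channel gene Trpm3. The lowest medians were those of Prlr, the prolactin receptor, at 0.337 RPKM and of Lbp, the lipopolysaccharide-binding protein, at 0.424 RPKM. Ttr alone took up to 0.311% of a library's counts. In the rn7 coordinates of the table, Ttr lies at chr18:11943794-11951007 on the plus strand and Mfrp, a membrane-bound frizzled-related protein, at chr8:44445697-44450859 on the plus strand. Folr1, the folate receptor that carries folate into the fluid, is at chr1:156219460-156230667 on the minus strand. Aqp1, the apical water channel, is at chr4:84482512-84494690 on the plus strand. Kcnj13, an inwardly rectifying potassium channel, is at chr9:88063003-88071112 on the minus strand. The exons of no member overlapped those of another gene of the table.

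Promoter sequences are shown for 3 of these genes because they moved together across slices while differing in the letters next to their start. RefSeq promoters of assembly GRCr8, from 250 bases before to 50 after a start, were found for 27 of the 34 members, 29 promoters in all. TAATCC, the core letters that OTX-type homeodomain proteins are known to bind, stood in 3 of these 29 (10.3%: Ace, Mfrp and Vat1l) on either strand, against 7.17% of all 33469 rat promoters. TATAAA, the core of the best known promoter motif, stood in 5 of 29 (17.2%: Ace, Aqp1, Cab39l, Kcnj13 and Krt8) on either strand, against 14.2% of all. Both shares were near those of all promoters, and these 2 motifs do not overlap each other in letters. The 250 bases before the start of Mfrp (GRCr8 chr8:53342284-53342533, plus strand), Kcnj13 (chr9:95518987-95519236, minus strand) and Aqp1 (chr4:85812534-85812783, plus strand) read, 5′ to 3′ on the gene's strand with the motif in capitals (in Mfrp, the reverse complement GGATTA):
Mfrp: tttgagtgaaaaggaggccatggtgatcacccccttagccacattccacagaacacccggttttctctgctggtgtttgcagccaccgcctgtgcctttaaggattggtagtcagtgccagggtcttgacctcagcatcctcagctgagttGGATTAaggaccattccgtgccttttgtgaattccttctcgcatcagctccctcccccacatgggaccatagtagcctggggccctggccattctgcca
Kcnj13: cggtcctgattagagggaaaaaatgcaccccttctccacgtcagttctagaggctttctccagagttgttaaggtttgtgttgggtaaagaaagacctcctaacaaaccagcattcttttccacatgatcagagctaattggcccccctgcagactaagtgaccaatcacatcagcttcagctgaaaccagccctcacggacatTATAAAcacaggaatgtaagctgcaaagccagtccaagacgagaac
Aqp1: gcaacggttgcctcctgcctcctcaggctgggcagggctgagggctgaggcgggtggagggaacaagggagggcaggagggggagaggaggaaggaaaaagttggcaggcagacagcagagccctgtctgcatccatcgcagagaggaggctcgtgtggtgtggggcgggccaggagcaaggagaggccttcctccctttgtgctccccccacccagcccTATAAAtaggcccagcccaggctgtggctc

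The difference that stood out in these genes was between the batches, and it was present in animals that had no exposure. With saline controls alone, 26 of 33 members were higher in batch 2 than in batch 1 at an adjusted p under 0.1 and 0 were lower (edgeR quasi-likelihood test). The same contrast called 41.9% of all 12816 genes, 20.6% as higher in batch 2, and the members' share was 78.8%. The median log2 fold change of the members was 2.33, and 32 of 33 were positive. Over all genes tested the median was -0.0033. With the litter as a random effect 22 members were called, where 2958 of 12816 genes were. With counts summed per litter, which sets 4 litters against 3, 26 members were called, where 2178 of 12816 genes were. Batch here means processing and sequencing run together, and the litters, the slices and the sequencing changed with it, so these cannot be told apart.

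Ttr, the gene most used to mark this tissue, ranged from 0.358 to 103 CPM (median 6.09) in batch 1 controls. In batch 2 controls it ranged from 119.6 to 2718 CPM (median 665). The groups of controls did not overlap, and the log2 fold change was 5.66 ± 0.83 (SE, adjusted p = 1.87e-07). Ttr in LDHA/B+CRMP1+STIP1-exposed slices ranged from 0.130 to 526 CPM (median 33.8) in batch 1 and from 352 to 2063 CPM (median 1254) in batch 2. In the other exposed groups of batch 2 it ranged from 169 to 3114 CPM (median 1061) in CRMP1+CRMP2, from 243 to 2323 CPM (median 675) in CRMP1+GDA and from 474 to 1887 CPM (median 1008) in STIP1+NSE. All 5 groups of batch 2 overlapped one another.

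**Figure D1:**
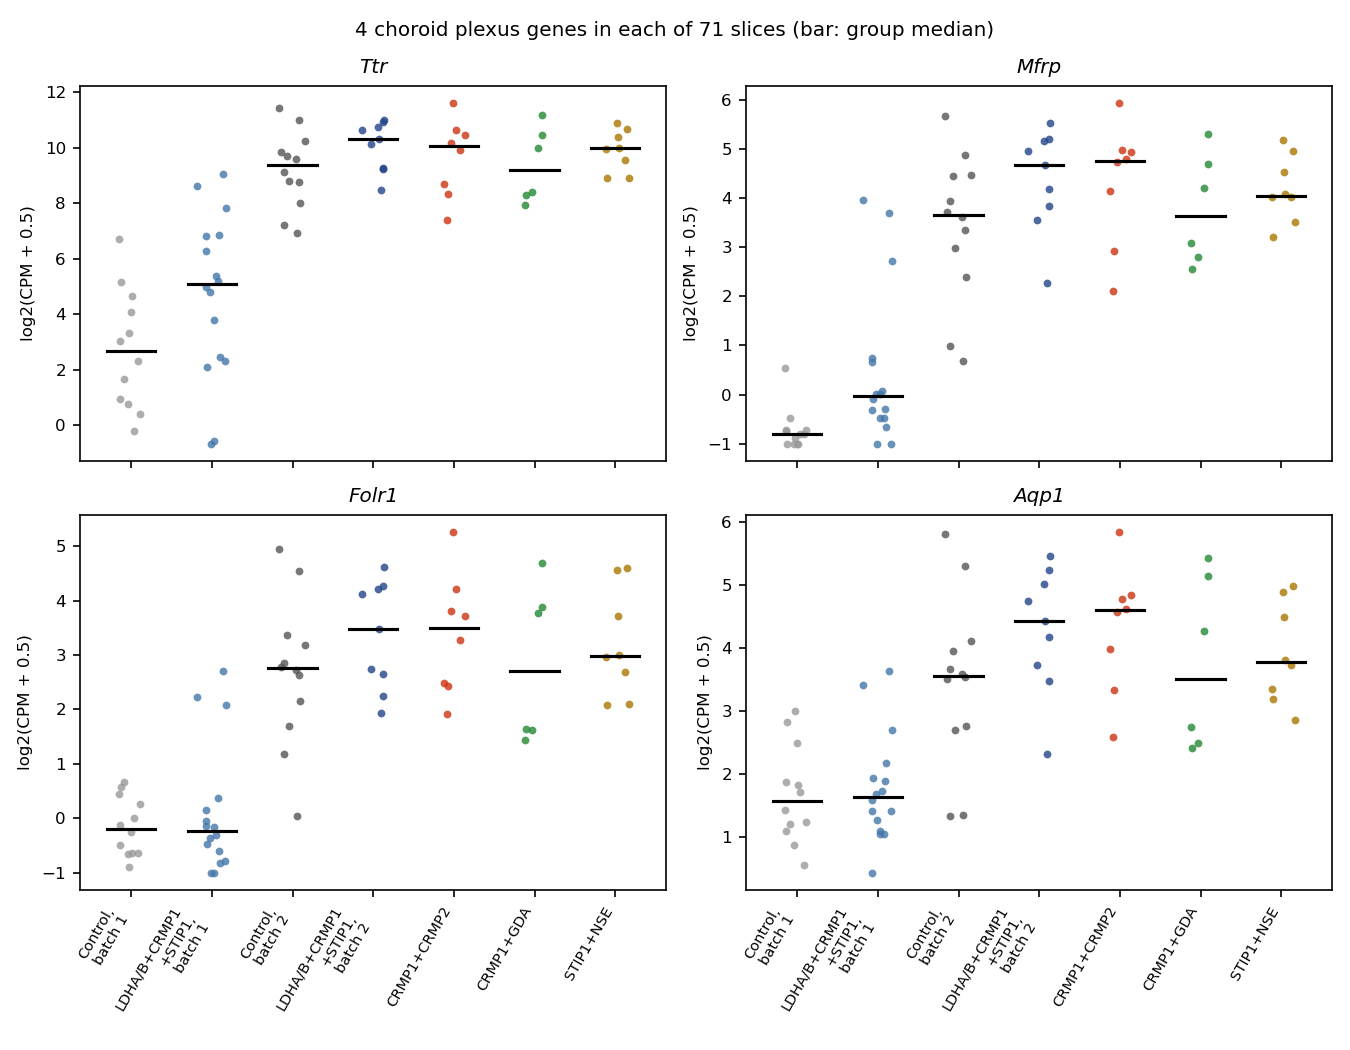
Level of Ttr, Mfrp, Folr1 and Aqp1 as log2(CPM + 0.5) in each slice (1 point per animal), by group, with the group median as a bar. Both batch 1 groups have lower medians than each batch 2 group for all 4 genes, and the 5 groups of batch 2 overlap.

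Mfrp showed the largest fitted difference between the controls among the members. It ranged from 0 to 0.959 CPM (median 0.0710) in batch 1 controls, where 10 of 12 libraries held 3 counts or fewer and all 12 together 49 counts. It ranged from 1.10 to 50.5 CPM (median 12.2) in batch 2 controls, with 5479 counts in all. The log2 fold change was 6.74 ± 0.83 (SE, adjusted p = 2.12e-09), and the ratio of the mean CPM was 112. In the exposed groups of batch 2, Mfrp ranged from 4.31 to 45.9 CPM (median 25.2) in LDHA/B+CRMP1+STIP1, from 3.85 to 60.9 CPM (median 26.7) in CRMP1+CRMP2, from 5.42 to 38.9 CPM (median 13) in CRMP1+GDA and from 8.77 to 36.2 CPM (median 16.1) in STIP1+NSE. In LDHA/B+CRMP1+STIP1 of batch 1 it ranged from 0 to 15.1 CPM (median 0.476), and 5 of 16 slices were over 1 CPM. In 4 of the 12 batch 1 controls Mfrp had 0 counts, so the fitted fold rests on very few fragments there.

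Among the receptors and membrane enzymes, all 6 were higher in batch 2 controls. Folr1 ranged from 0.0394 to 1.10 CPM (median 0.377) in batch 1 controls and from 0.532 to 30.4 CPM (median 6.28) in batch 2 controls, and the log2 fold change was 4.19 ± 0.66 (SE, adjusted p = 6.56e-07). The ranges overlapped, because 1 batch 2 control lay at 0.532 CPM. Folr1 ranged from 0 to 6.01 CPM (median 0.351) in LDHA/B+CRMP1+STIP1 of batch 1, from 3.32 to 24.2 CPM (median 10.7) in that pattern in batch 2, from 3.27 to 38 CPM (median 10.9) in CRMP1+CRMP2, from 2.22 to 25.3 CPM (median 7.92) in CRMP1+GDA and from 3.74 to 23.8 CPM (median 7.40) in STIP1+NSE. Kl, the klotho co-receptor of a fibroblast growth factor, ranged from 0.139 to 1.56 CPM (median 0.846) in batch 1 controls and from 0.304 to 33.6 CPM (median 6.09) in batch 2 controls, and the log2 fold change was 3.27 ± 0.60 (SE, adjusted p = 1.39e-05). In the exposed groups Kl ranged from 0 to 8.53 CPM (median 0.857) in LDHA/B+CRMP1+STIP1 of batch 1, from 1.25 to 24.8 CPM (median 12) in batch 2, from 1.64 to 32.4 CPM (median 12.4) in CRMP1+CRMP2, from 1.18 to 23.9 CPM (median 6.19) in CRMP1+GDA and from 2.36 to 25.2 CPM (median 6.87) in STIP1+NSE. Folr1 and Kl were thus low in nearly all batch 1 slices and spread over more than an order of magnitude in batch 2. Steap1, of a family of metalloreductases, had a log2 fold change of 2.37 ± 0.45, Prlr of 1.01 ± 0.32 and Ace, the angiotensin-converting enzyme, of 0.94 ± 0.23. Ace was over 1 CPM in all 71 slices, with a lowest value of 3.24 CPM.

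Of the 9 channels and transporters, 6 were higher in batch 2 controls. Aqp1 ranged from 0.985 to 7.48 CPM (median 2.5) in batch 1 controls and from 2.02 to 55.3 CPM (median 11.3) in batch 2 controls, and the log2 fold change was 2.26 ± 0.45 (SE, adjusted p = 6.46e-05). Aqp1 in exposed slices ranged from 0.861 to 12 CPM (median 2.63) in LDHA/B+CRMP1+STIP1 of batch 1, from 4.48 to 43.5 CPM (median 21) in batch 2, from 5.51 to 56.9 CPM (median 23.7) in CRMP1+CRMP2, from 4.86 to 42.4 CPM (median 12.5) in CRMP1+GDA and from 6.74 to 31.2 CPM (median 13.2) in STIP1+NSE. Aqp1 was not near 0 in batch 1, and the ranges of the controls overlapped. Kcnj13 ranged from 0.105 to 1.17 CPM (median 0.504) in batch 1 controls and from 0.266 to 13.9 CPM (median 3.68) in batch 2 controls, and the log2 fold change was 2.77 ± 0.42 (SE, adjusted p = 3.84e-07). Among exposed slices Kcnj13 ranged from 0.235 to 3.20 CPM (median 0.873) in LDHA/B+CRMP1+STIP1 of batch 1, from 2.92 to 9.85 CPM (median 5.62) in batch 2, from 2.67 to 14.2 CPM (median 5.62) in CRMP1+CRMP2, from 2.56 to 13.3 CPM (median 4.03) in CRMP1+GDA and from 1.90 to 8.98 CPM (median 4.02) in STIP1+NSE. Its lowest batch 2 control lay within the range of batch 1. Clic6, a chloride intracellular channel protein, ranged from 0.0661 to 0.827 CPM (median 0.225) in batch 1 controls and from 0.304 to 44.6 CPM (median 9.46) in batch 2 controls, and the log2 fold change was 5.35 ± 0.71 (SE, adjusted p = 1.78e-08). In slices of exposed offspring Clic6 ranged from 0 to 8.04 CPM (median 0.550) in LDHA/B+CRMP1+STIP1 of batch 1, from 4.14 to 37.1 CPM (median 20.9) in batch 2, from 1.92 to 41.8 CPM (median 19.7) in CRMP1+CRMP2, from 1.40 to 33 CPM (median 10.3) in CRMP1+GDA and from 3.49 to 22.3 CPM (median 12.4) in STIP1+NSE. Clic6 had the widest spread of all members within batch 2, with a highest slice 147 times the lowest. Slc4a5, a sodium bicarbonate cotransporter, ranged from 0.198 to 1.16 CPM (median 0.531) in batch 1 controls and from 0.759 to 24.1 CPM (median 5.41) in batch 2 controls, and the log2 fold change was 3.55 ± 0.51 (SE, adjusted p = 8.85e-08). With exposure Slc4a5 ranged from 0.129 to 4.28 CPM (median 0.520) in LDHA/B+CRMP1+STIP1 of batch 1, from 1.76 to 18.5 CPM (median 10.4) in batch 2, from 2.04 to 27.6 CPM (median 11.2) in CRMP1+CRMP2, from 1.78 to 17.4 CPM (median 7.18) in CRMP1+GDA and from 3.87 to 17.4 CPM (median 7.88) in STIP1+NSE. For both Clic6 and Slc4a5 the batch 2 medians were lowest in controls, and the ranges of all batch 2 groups overlapped. Slc4a2, an anion exchanger, was expressed in every slice and had a log2 fold change of 0.85 ± 0.14, and Trpv4, an osmosensitive cation channel, one of 2.58 ± 0.46. The remaining 3 did not pass the test between the controls. Trpm3 had a log2 fold change of -0.03 ± 0.10, the copper pump gene Atp7b of 0.03 ± 0.12 and the sulfate transporter gene Slc13a4 of 0.74 ± 0.40.

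The 3 transcription factors were all higher in batch 2 controls. Otx2, which the choroid plexus needs to form, ranged from 0 to 4.93 CPM (median 2.12) in batch 1 controls and from 8.12 to 20.5 CPM (median 11.9) in batch 2 controls, and the log2 fold change was 2.70 ± 0.39 (SE, adjusted p = 1.01e-07). In the exposed groups Otx2 ranged from 0.129 to 5.08 CPM (median 1.12) in LDHA/B+CRMP1+STIP1 of batch 1, from 8.31 to 20.9 CPM (median 10.7) in batch 2, from 9.33 to 37.2 CPM (median 13.9) in CRMP1+CRMP2, from 10.9 to 29 CPM (median 13) in CRMP1+GDA and from 7.54 to 24.5 CPM (median 14.4) in STIP1+NSE. Of the 33 members, Otx2 was the only gene for which all 43 slices of batch 2 lay above all 28 of batch 1. Lmx1a, a roof plate factor, ranged from 0 to 1.46 CPM (median 0.108) in batch 1 controls and from 1.13 to 14.1 CPM (median 4.54) in batch 2 controls, and the log2 fold change was 4.35 ± 0.54 (SE, adjusted p = 2.80e-09). Lmx1a in exposed slices ranged from 0 to 2.03 CPM (median 0.250) in LDHA/B+CRMP1+STIP1 of batch 1, from 2.07 to 7.56 CPM (median 4.43) in batch 2, from 3.78 to 14 CPM (median 7.92) in CRMP1+CRMP2, from 1.26 to 15.8 CPM (median 7.80) in CRMP1+GDA and from 1.42 to 9.80 CPM (median 3.81) in STIP1+NSE. Lmx1a was above the highest batch 1 slice in 40 of 43 batch 2 slices. Msx1, a homeodomain factor of the roof plate and its derivatives, had a log2 fold change of 1.94 ± 0.33. Otx2 and Lmx1a are also known to be expressed in parts of the diencephalon and midbrain outside the choroid plexus.

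The 5 tight junction and keratin genes were all higher in batch 2 controls. Cldn1 ranged from 0.840 to 2.58 CPM (median 1.40) in batch 1 controls and from 1.44 to 21.2 CPM (median 6.47) in batch 2 controls, and the log2 fold change was 2.33 ± 0.33 (SE, adjusted p = 9.42e-08). Among exposed slices Cldn1 ranged from 0.652 to 5.30 CPM (median 1.75) in LDHA/B+CRMP1+STIP1 of batch 1, from 3.97 to 13 CPM (median 10.4) in batch 2, from 3.39 to 24.1 CPM (median 9.56) in CRMP1+CRMP2, from 3.83 to 16 CPM (median 5.53) in CRMP1+GDA and from 4.64 to 12.9 CPM (median 6.23) in STIP1+NSE. Cldn1 encodes a sealing claudin, and Cldn2 a claudin that forms a cation-permeable pore. Cldn2 ranged from 0 to 0.919 CPM (median 0.276) in batch 1 controls and from 0.759 to 20.8 CPM (median 4.39) in batch 2 controls, and the log2 fold change was 4.45 ± 0.68 (SE, adjusted p = 3.99e-07). In slices of exposed offspring Cldn2 ranged from 0 to 4.31 CPM (median 0.222) in LDHA/B+CRMP1+STIP1 of batch 1, from 1.29 to 15.5 CPM (median 8.33) in batch 2, from 1.64 to 31.5 CPM (median 7.85) in CRMP1+CRMP2, from 1.99 to 19 CPM (median 4.63) in CRMP1+GDA and from 2.48 to 17.1 CPM (median 7.03) in STIP1+NSE. Cldn2 was listed at 0 in 3 of 12 batch 1 controls and in none of batch 2. Cldn3, another sealing claudin, ranged from 0 to 1.02 CPM (median 0.388) in batch 1 controls and from 0.987 to 2.37 CPM (median 1.65) in batch 2 controls, and the log2 fold change was 2.02 ± 0.44 (SE, adjusted p = 2.02e-04). With exposure Cldn3 ranged from 0 to 0.924 CPM (median 0.171) in LDHA/B+CRMP1+STIP1 of batch 1, from 0.516 to 2.70 CPM (median 1.46) in batch 2, from 0.457 to 2.70 CPM (median 1.75) in CRMP1+CRMP2, from 0.371 to 3.48 CPM (median 2.00) in CRMP1+GDA and from 0.387 to 1.85 CPM (median 1.10) in STIP1+NSE. Cldn3 was at most 3.48 CPM in every slice and its group ranges overlapped between the batches. Krt18, a keratin of simple epithelia, ranged from 0.363 to 4.02 CPM (median 2.14) in batch 1 controls and from 4.90 to 15.2 CPM (median 9.25) in batch 2 controls, and the log2 fold change was 2.23 ± 0.32 (SE, adjusted p = 7.48e-08). In the exposed groups Krt18 ranged from 0.143 to 4.93 CPM (median 1.77) in LDHA/B+CRMP1+STIP1 of batch 1, from 4.35 to 12.7 CPM (median 10.2) in batch 2, from 3.89 to 9.59 CPM (median 8.33) in CRMP1+CRMP2, from 3.68 to 15.1 CPM (median 10.2) in CRMP1+GDA and from 4.96 to 10.9 CPM (median 8.92) in STIP1+NSE. Its partner Krt8 had a log2 fold change of 2.77 ± 0.43. Both keratin genes have processed pseudogenes, and how reads with several matches were counted is not given in the sources used here, so their levels are less certain.

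Of the 7 secreted proteins, Ttr, Sostdc1, F5 and Enpp2 were higher in batch 2 controls. Sostdc1, a secreted antagonist of bone morphogenetic protein and Wnt signals, ranged from 0.190 to 1.84 CPM (median 0.922) in batch 1 controls and from 2.62 to 34.2 CPM (median 10.5) in batch 2 controls, and the log2 fold change was 3.65 ± 0.46 (SE, adjusted p = 3.37e-09). Sostdc1 in exposed slices ranged from 0.273 to 7.15 CPM (median 1.57) in LDHA/B+CRMP1+STIP1 of batch 1, from 6.11 to 27.5 CPM (median 16) in batch 2, from 2.76 to 42 CPM (median 16.8) in CRMP1+CRMP2, from 5.70 to 29.4 CPM (median 10.1) in CRMP1+GDA and from 4.96 to 25.9 CPM (median 13) in STIP1+NSE. The controls of the batches did not overlap for Sostdc1. F5, coagulation factor V, ranged from 0.139 to 0.945 CPM (median 0.488) in batch 1 controls and from 0.354 to 5.53 CPM (median 2.90) in batch 2 controls, and the log2 fold change was 2.65 ± 0.37 (SE, adjusted p = 3.46e-08). Among exposed slices F5 ranged from 0.222 to 2.12 CPM (median 0.507) in LDHA/B+CRMP1+STIP1 of batch 1, from 1.59 to 4.34 CPM (median 3.85) in batch 2, from 1.26 to 11.7 CPM (median 4.44) in CRMP1+CRMP2, from 0.408 to 5.37 CPM (median 3.09) in CRMP1+GDA and from 1.84 to 4.54 CPM (median 4.12) in STIP1+NSE. F5 was under 1 CPM in all 12 batch 1 controls. Enpp2 ranged from 16.8 to 29.5 CPM (median 24.8) in batch 1 controls and from 23 to 161 CPM (median 56.7) in batch 2 controls, and the log2 fold change was 1.42 ± 0.25 (SE, adjusted p = 9.63e-06). In slices of exposed offspring Enpp2 ranged from 18.2 to 73.7 CPM (median 26.1) in LDHA/B+CRMP1+STIP1 of batch 1, from 34.5 to 145 CPM (median 90.5) in batch 2, from 44 to 221 CPM (median 99.99) in CRMP1+CRMP2, from 36.1 to 119 CPM (median 62.7) in CRMP1+GDA and from 46.4 to 130.5 CPM (median 60.7) in STIP1+NSE. Enpp2 is also a gene of oligodendrocyte precursors, and no slice lacked it. Igfbp2 ranged from 129 to 228 CPM (median 181) in batch 1 controls and from 126 to 427 CPM (median 209) in batch 2 controls, and its log2 fold change of 0.27 ± 0.15 did not pass the test. With exposure Igfbp2 ranged from 125 to 229 CPM (median 182) in LDHA/B+CRMP1+STIP1 of batch 1, from 141 to 376 CPM (median 257) in batch 2, from 153 to 408 CPM (median 231) in CRMP1+CRMP2, from 188 to 415 CPM (median 260.0) in CRMP1+GDA and from 157 to 329.6 CPM (median 249) in STIP1+NSE. Its lowest slice was at 125 CPM in batch 1 and 126 CPM in batch 2, and its highest at 229 and 427 CPM. Lbp had a log2 fold change of 0.47 ± 0.39 and Bmp6, a bone morphogenetic protein, of 0.04 ± 0.26, and neither passed. Of the last 3 genes, Tmem72 had a log2 fold change of 2.89 ± 0.54 and Calml4, a calmodulin-like protein, of 2.33 ± 0.38, while Cab39l, an adaptor of the kinase LKB1, had 0.02 ± 0.09 and did not pass.

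**Figure D2:**
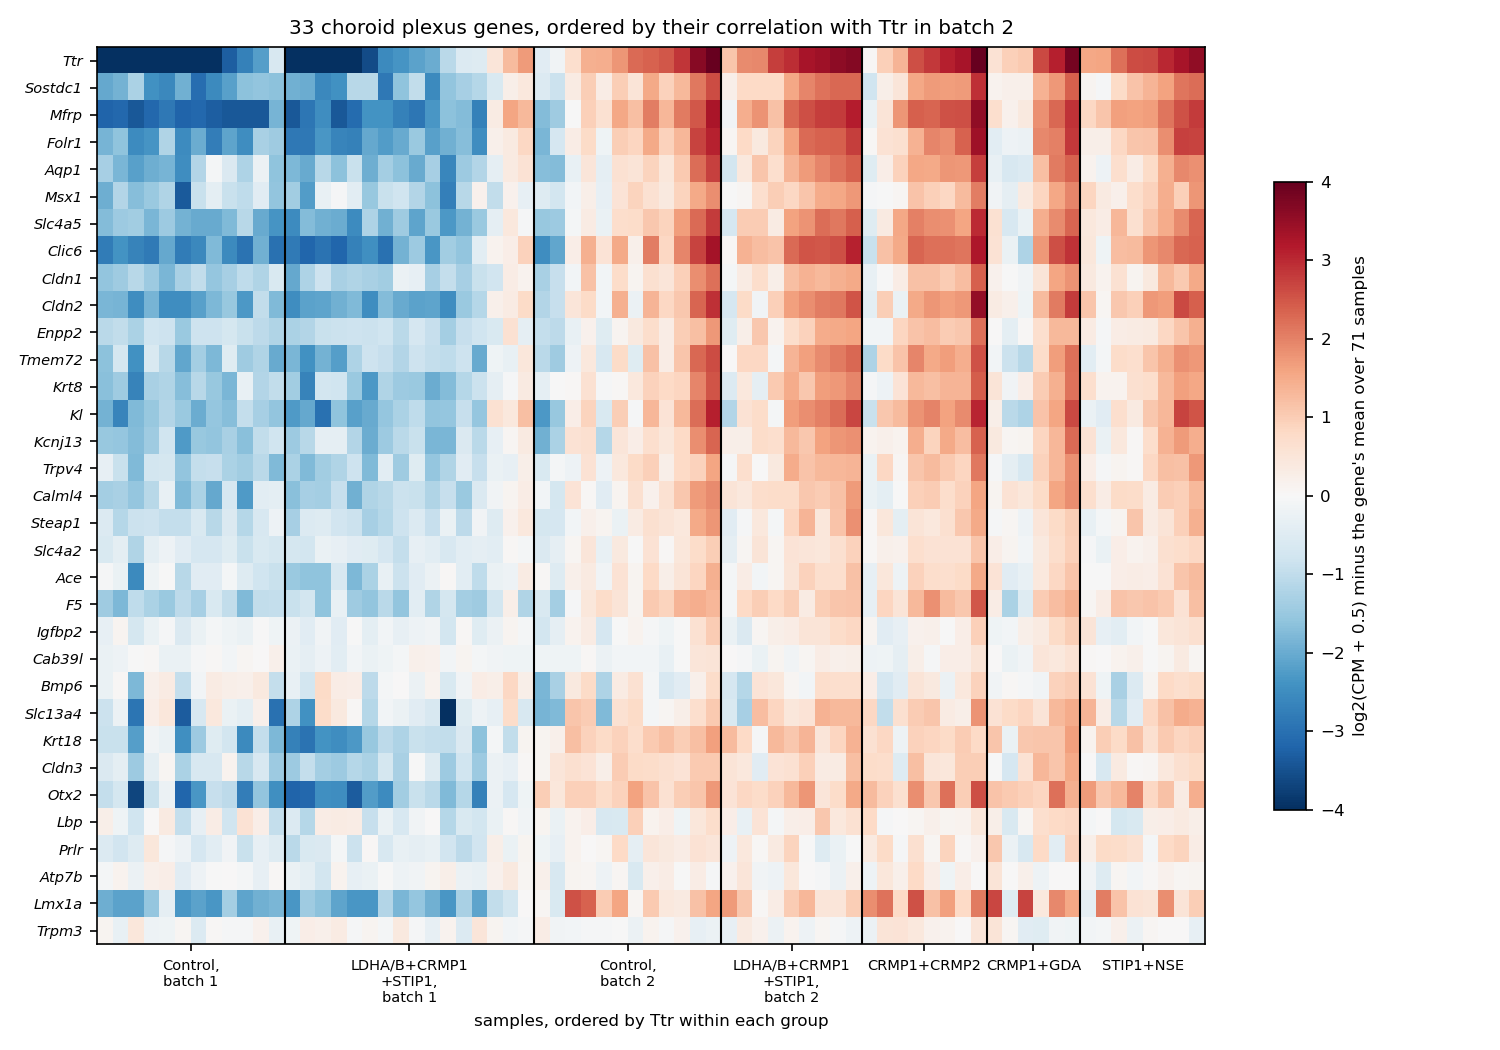
Each of the 33 genes (rows, ordered by their correlation with Ttr in batch 2) in each of 71 slices (columns, ordered by Ttr within group), as log2(CPM + 0.5) minus the gene's mean over all slices, with red above and blue below the mean. Rows at the top change from blue in batch 1 to red in batch 2 and deepen together with Ttr within each batch 2 group. Among the rows near the bottom, Atp7b and Trpm3 stay near white, while Lmx1a and Otx2 also change from blue to red between the batches.

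The controls of the 2 batches did not overlap, with batch 2 higher, for 5 of 33 members (Ttr, Sostdc1, Mfrp, Otx2 and Krt18), against 0.890% of all 12816 genes. Other parts of the slice differed in the same contrast. A second list of other choroid plexus genes had 30 with a row. Car12 and Car14, which stand there under the symbols Ca12 and Ca14, were left out of its fold changes. Of the 28 genes counted, 14 were higher in batch 2 controls and 1 was lower. The median log2 fold change of these 28 was 0.40, well below that of the members. The 14 included Slco1a5, an organic anion transporter, with a log2 fold change of 5.88 and Kcne2, a potassium channel subunit, with one of 1.56. All 11 ependymal and motile cilium genes tested were higher (median log2 fold change 1.61). Genes of the thalamus were higher in 6 of 7 (median 2.56) and of the hypothalamus in 7 of 9 (median 3.47), and genes of the cortex were lower in 6 of 7 (median -0.86). Of 5 hippocampus genes, 4 were higher and 1 lower. The summed level of the 7 thalamus genes ran from 26.5 to 75.9 CPM in batch 1 and from 39.5 to 880.3 CPM in batch 2, and that of 7 cortex genes from 1195 to 2038 CPM in batch 1 and from 544 to 1696 CPM in batch 2. The part of these differences in the members' levels was not tested.

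Mfrp, Folr1, Clic6 and Cldn2, 4 genes largely limited to choroid plexus epithelium in the brain, were at low levels in most batch 1 slices, whereas Ttr was over 1 CPM in 24 of 28 and Aqp1 in 26 of 28. All 4 were over 1 CPM in 3 of 28 batch 1 slices and in 41 of 43 batch 2 slices. None of these 4 was over 1 CPM in 20 batch 1 slices and in 0 of batch 2. In those 20 slices Ttr still ranged from 0.130 to 103 CPM with a median of 6.31 CPM. The ratio of Ttr to Mfrp lay between 24.0 and 109 in batch 2 (median 52.2, n = 43) and between 0.833 and 362 in the 22 batch 1 slices with any Mfrp count (median 47.9). Ttr was therefore counted in slices where these 4 genes were each at most 1 CPM. At the batch 2 median ratio of 52.2, the median Ttr of these slices would go with Mfrp under 1 CPM. The contrast thus follows in part from using 1 limit for genes of unlike level. Most batch 1 ratios rest on a few Mfrp counts and 6 slices had none, so the spread of the batch 1 ratios is not compared with that of batch 2.

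**Figure D3:**
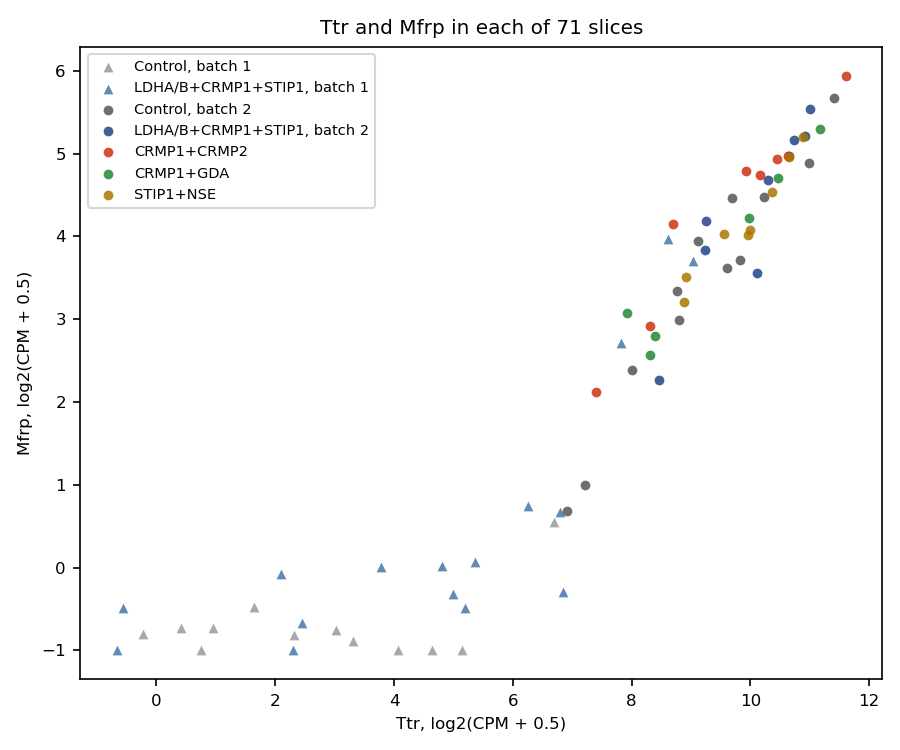
Mfrp against Ttr, both as log2(CPM + 0.5), with 1 point per slice (triangles for batch 1, circles for batch 2, colour by group). In batch 2 the points rise along 1 line, 3 batch 1 triangles lie on it, and the other batch 1 slices spread over Ttr with Mfrp near the floor.

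The 3 batch 1 slices with all 4 of these genes over 1 CPM were LDHA/B+CRMP1+STIP1-exposed males, 2 of litter RNA1 and 1 of litter RNA2, with 225, 390 and 526 CPM of Ttr. Mfrp and Folr1, which picked them, lay between 6.05 and 15.1 CPM and between 3.73 and 6.01 CPM in them. Kl, which did not, lay between 4.81 and 8.53 CPM, against at most 1.59 CPM in the other 25 batch 1 slices. Slc4a5, named like Kl after its values were seen, lay between 2.28 and 4.28 CPM, against at most 1.16 CPM. Besides Ttr, 11 members lay above all the other 25 in each of the 3 slices, among them the 4 that picked these slices. The remaining members overlapped, such as Aqp1 (lowest of the 3 at 6.02, highest of the 25 at 7.48 CPM) and Otx2 (3.52 and 4.93 CPM). The summed thalamus genes of these 3 slices (48.4 to 56.0 CPM) and their cortex genes (1463 to 1544 CPM) lay within the range of the other 25. For 4 of the 13 lists the highest of the 3 slices was above all the other 25, namely ependymal genes (58.2 against 51.9 CPM), hypothalamus genes (40.1 against 33.2 CPM), meningeal fibroblast genes (758 against 742 CPM) and the other choroid plexus genes (776 against 747 CPM). Their part in the members' levels was not tested.

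Within batch 2 most members rose and fell with Ttr from slice to slice. Over 43 slices, the median Pearson's r with Ttr on log2(CPM + 0.5) was 0.852 for 32 members, beside 0.0700 for all tested genes. It was at least 0.9 for 8 of 32 members and for 2 of 12783 other genes, and at least 0.8 for 20 members and 24 other genes. The closest were Sostdc1 (r = 0.956), Mfrp (0.949), Folr1 (0.948), Aqp1 (0.940), Msx1 (0.927), Slc4a5 (0.916), Clic6 (0.905) and Cldn1 (0.901). Without the 2 slices farthest from the median of Ttr, r was 0.948 for Sostdc1 and 0.939 for Mfrp. Other lists also moved with Ttr over these slices, taken as the mean log2(CPM + 0.5) of each list. The second list of choroid plexus genes, here with all 30 that had a row, had r = 0.852, ependymal genes 0.661, endothelial genes 0.626, roof plate and cortical hem genes 0.585, meningeal fibroblast genes 0.463, microglia genes 0.444 and red blood cell genes 0.437, while thalamus genes had -0.24 and hippocampus genes -0.32. These points share library scaling and litters, so r is given as a description. Members of several roles were in this group: a secreted antagonist, receptors, a water channel, a bicarbonate cotransporter, a transcription factor and a claudin.

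A smaller set of members followed Ttr more weakly or not at all in batch 2. Trpm3 had r = -0.15, Lmx1a -0.01, Atp7b 0.07, Prlr 0.17, Lbp 0.37, Otx2 0.39, Cldn3 0.48 and Krt18 0.50. Trpm3 varied only 2.03-fold between the lowest and the highest batch 2 slice, and Atp7b 2.98-fold. Lmx1a varied 13.9-fold and Otx2 4.94-fold, so that their levels differed from slice to slice more than those of Trpm3 and Atp7b. Lmx1a, Otx2 and Krt18 were all higher in batch 2 controls than in batch 1 controls. Lbp and Prlr were under 1 CPM in most slices, where counting error is large. In batch 1 the median r over 32 members was 0.439 (n = 28), and no member reached 0.8.

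**Figure D4:**
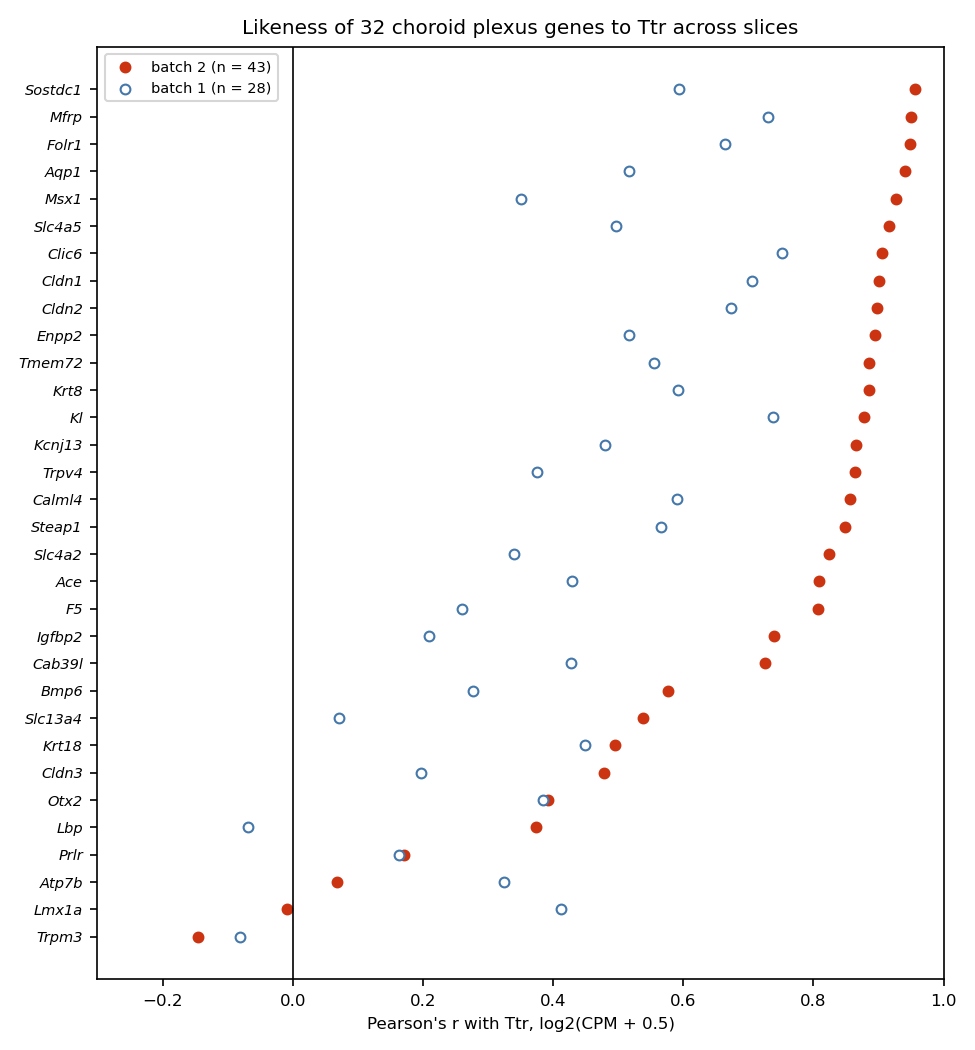
Pearson's r of 32 choroid plexus genes with Ttr across slices, on log2(CPM + 0.5), in batch 2 (filled, n = 43) and batch 1 (open, n = 28). In batch 2, 20 genes reach 0.8 and 6 lie below 0.4, and in batch 1 none reaches 0.8.

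The genes outside the list whose pattern was most like Ttr over the 43 batch 2 slices were Kcne2 (r = 0.915), Klk4 (0.909), Slco1a5 (0.896), Cdh3 (0.896), Psca (0.894), Pla2g5 (0.892), Slc16a8 (0.883) and Sod3 (0.880). Kcne2, Slco1a5 and Slc16a8, a monocarboxylate transporter, were on the second list of choroid plexus genes. Kcne2 ranged from 5.85 to 39.1 CPM in batch 2, and Slco1a5 from 0.0759 to 12.8 CPM. Cdh3 encodes P-cadherin and Sod3 the extracellular superoxide dismutase, and their batch 2 medians were 5.26 and 7.72 CPM. Klk4 and Psca had medians of 0.932 and 1.34 CPM, so their likeness rests on few counts.

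Littermates often differed widely in these genes. In batch 2, 19 litters gave 2 or more slices, and the highest Ttr of a litter was between 1.14 and 9.996 times its lowest, with a median of 2.07 times and over 2 times in 11 litters. For Mfrp this ratio reached 19.8, for Folr1 16.1 and for Aqp1 8.19. In control litter 9_10, 4 littermates lay between 119.6 and 1195 CPM of Ttr. In the CRMP1+CRMP2 litters the paired values were 1150 and 3114 CPM (litter 9_1), 416 and 972 CPM (9_6), 318 and 1399 CPM (9_11) and 169 and 1588 CPM (9_16). Animals of 1 litter and 1 exposure thus spanned much of the range of all batch 2 slices. Across all genes, the correlation within litters that the random-effect fit estimated was 0.279.

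The comparisons with saline controls asked whether exposure to an autoantibody pattern went with other levels of these genes, and the result for CRMP1+CRMP2 depended on which controls were used. Against the 12 controls of its own batch, 0 of 33 members were called by edgeR, where the contrast called 3.21% of 12816 genes. At an unadjusted p under 0.05 there were 3 members, all positive, where 2500 of the 12816 genes had one. DESeq2 called 1 member, Trpm3, where it called 716 of 12816 genes. The median log2 fold change of the members was 0.40, with 32 of 33 positive, beside 0.012 over all genes. Against the same 12 controls the median was 0.16 with 26 positive in STIP1+NSE, 0.21 with 30 positive in CRMP1+GDA and 0.30 with 29 positive in LDHA/B+CRMP1+STIP1. Most members rose and fell together across slices, with a median r with Ttr of 0.852 in batch 2. Counts of positive members, here and in the other comparisons, are therefore not independent and are given as a description. The smallest p-values were those of Trpm3 (0.32 ± 0.11, adjusted p = 0.131), Enpp2 (0.62 ± 0.27, adjusted p = 0.199) and F5 (0.71 ± 0.36, adjusted p = 0.255). Ttr had a log2 fold change of 0.45 ± 0.75 and Mfrp of 0.79 ± 0.59. Without the CRMP1+CRMP2 slice highest in Ttr, the median of the members was 0.10 and 22 were positive. That slice was picked by its Ttr, so some fall was fixed in advance. Leaving out single litters gave 0 to 3 called members, 3 without CRMP1+CRMP2 litter 9_16 (Trpm3, Enpp2 and F5), 1 without control litter 9_5 (Enpp2) and 1 without control litter 9_10 (Trpm3). Over all genes, 2203 of 12808 were called without 9_16, 180 of 12812 without 9_5 and 1977 of 12808 without 9_10.

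Against all 24 controls with 1 surrogate variable, the model after the study's own, 21 of 33 members were higher in CRMP1+CRMP2 and 0 were lower. This model called 11.4% of 12691 genes, 4.83% as higher. The largest were Mfrp (2.96 ± 0.74, adjusted p = 0.0231), Ttr (2.70 ± 0.87, adjusted p = 0.0662), Clic6 (2.46 ± 0.67, adjusted p = 0.0334) and Cldn2 (2.42 ± 0.66, adjusted p = 0.0332), and the smallest p was that of Lmx1a (1.99 ± 0.41, adjusted p = 0.00816). By role, 7 of 9 channels and transporters were called, 4 of 7 secreted proteins, 3 of 6 receptors and membrane enzymes, all 3 transcription factors, 3 of 5 tight junction and keratin genes and 1 of the other 3. Of the 24 controls in this model, 12 were batch 1 slices with Ttr of at most 103 CPM, and no CRMP1+CRMP2 slice was in batch 1. With batch and sex as covariates in place of the surrogate variable 0 members were called, where 491 of 12691 genes were. With the first 2 principal components 2 members were called, Trpm3 and Lmx1a, where 2394 of 12691 genes were. With the litter as a random effect 0 members were called by limma, where 33 of 12691 genes were. In that fit 6 members had an unadjusted p under 0.05, where 1957 of 12691 genes had one.

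The surrogate variable lay between -0.00342 and 0.345 in the 12 batch 1 controls and between -0.207 and -0.0308 in the 12 batch 2 controls. In the 8 CRMP1+CRMP2 slices it lay between -0.234 and 0.128 with a median of -0.131, so that its range overlapped that of the batch 1 controls. The count of 21 also rested on few litters. Without the CRMP1+CRMP2 slice highest in Ttr, a female of litter 9_1, it was 3 (Lmx1a, Trpm3 and Mfrp), and without the whole litter 9_1 it was also 3. It was 0 without litter 9_6, 6 without control litter RNA4, 11 without control litter IgG2 and between 14 and 24 without any other. Ttr without that slice had a log2 fold change of 0.88 and was not called. Since the slice was picked by its Ttr, part of this fall was fixed in advance.

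**Figure D5:**
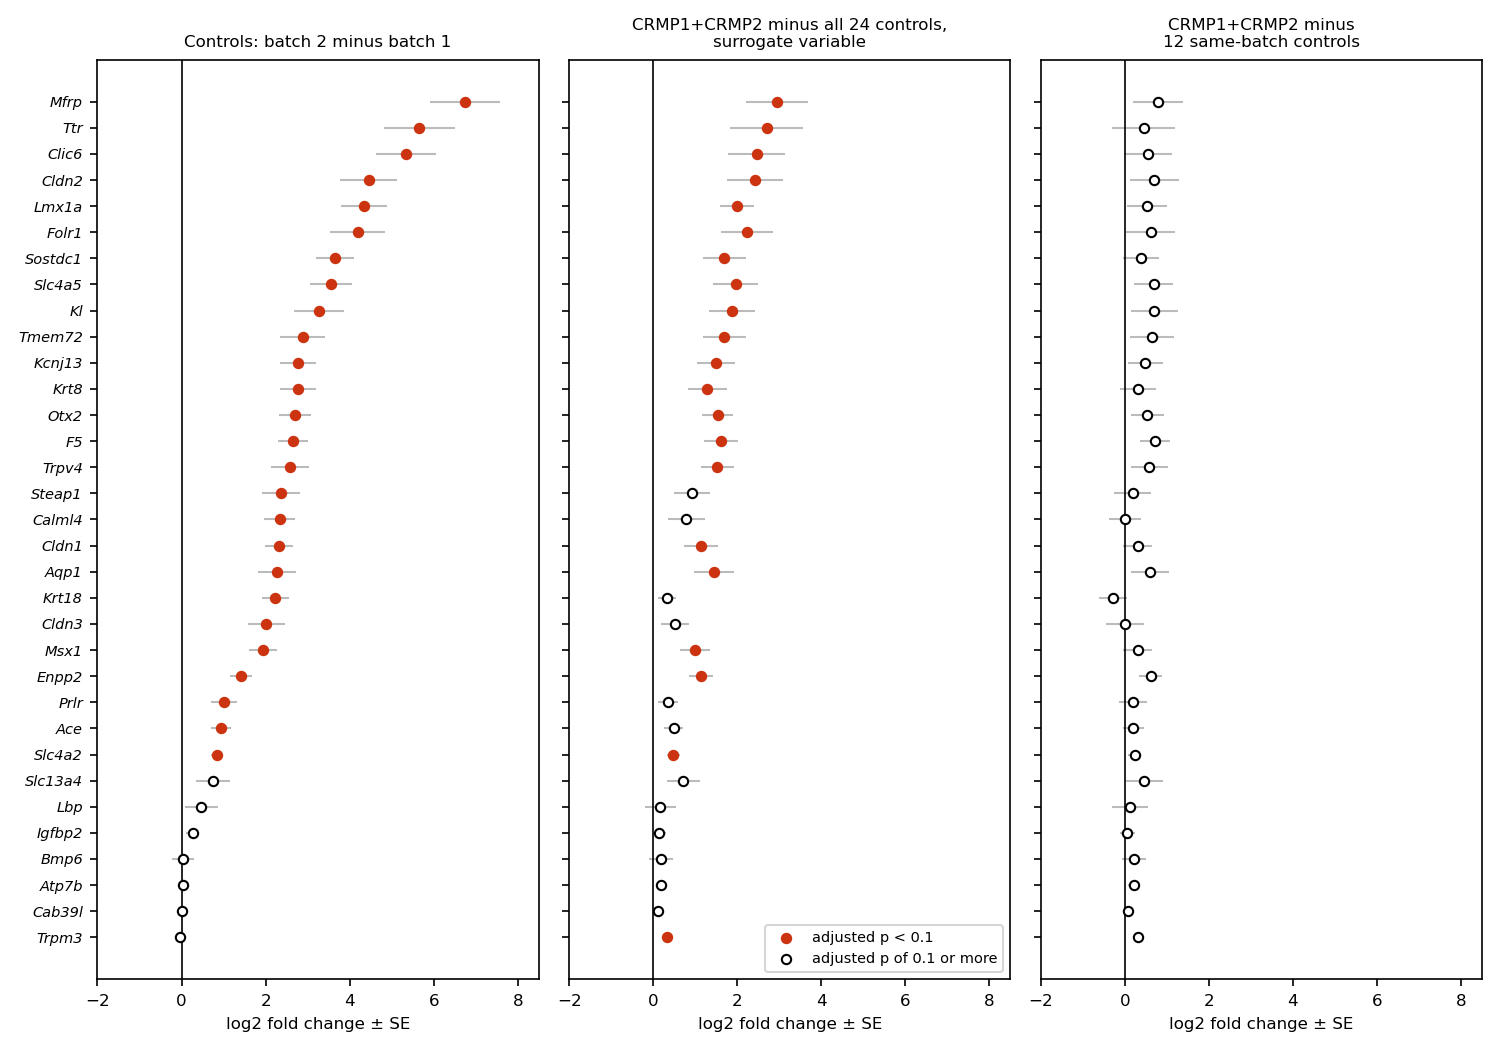
Log2 fold change with its SE for each of 33 members in 3 comparisons, ordered by the first, with filled points for an adjusted p under 0.1. The left panel sets batch 2 against batch 1 controls (26 filled), the middle CRMP1+CRMP2 against all 24 controls with a surrogate variable (21 filled), and the right CRMP1+CRMP2 against the 12 controls of its own batch (0 filled). The comparisons share control samples.

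That CRMP1+CRMP2 slice was the highest of all 71 in Ttr, at 3114 CPM, and it was also the highest in several other sets of genes. Its pineal genes summed to 288 CPM, where the median of its group was 13.3 CPM and batch 1 slices had at most 10.5 CPM. Its meningeal fibroblast genes (1490 CPM), endothelial genes (421 CPM) and red blood cell genes (2336 CPM) were also the highest of all slices. Its thalamus genes, at 45.5 CPM, were below those of 52 other slices, and its hippocampus genes, at 32.9 CPM, below those of 69. In CRMP1+CRMP2 against same-batch controls, 6 of 9 pineal genes were called as higher, among them Crx, a photoreceptor and pineal transcription factor, and Tph1, which starts serotonin synthesis, both named after their values were seen. With the litter as a random effect, 0 of the 12816 genes passed in this comparison, and 1661 had an unadjusted p under 0.05. With counts summed per litter 0 passed, and 1269 had one. Without that slice 1 gene of 12809 passed, but without its whole litter 9_1 199 of 12806 did. Without any other single litter the count ran from 25 (litter 9_6) to 2203 (litter 9_16), with 1977 without control litter 9_10. The part of these tissues in the members' differences was not tested.

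The other exposed groups of batch 2 gave no called member against their same-batch controls. In STIP1+NSE 0 of 33 members were called by edgeR, where 0% of all genes were called (0 members at an unadjusted p under 0.05, 0 by DESeq2). Ttr had a log2 fold change of 0.29 ± 0.75 and Mfrp of 0.38 ± 0.59. In CRMP1+GDA 0 of 33 were called, where 0.0702% of all genes were called (0 members at an unadjusted p under 0.05, 0 by DESeq2). Ttr had a log2 fold change of 0.18 ± 0.82 and Mfrp of 0.28 ± 0.65. For LDHA/B+CRMP1+STIP1 in batch 2, 0 of 33 were called, where 0.0390% of all genes were called (0 members at an unadjusted p under 0.05, 0 by DESeq2). Ttr had a log2 fold change of 0.50 ± 0.72 and Mfrp of 0.68 ± 0.57. Each of these differences of Ttr was smaller than its standard error. These 4 comparisons share the 12 controls of batch 2.

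For LDHA/B+CRMP1+STIP1 in batch 1, 0 of 33 members were called by edgeR, where 0% of all genes were called. At an unadjusted p under 0.05, 6 members were positive, where 694 of 12816 genes had one in either direction. These 6 were Mfrp (3.93 ± 0.87, adjusted p = 0.161), Ttr (2.44 ± 0.71, adjusted p = 0.536), Clic6, Sostdc1, Cldn2 and Kcnj13. DESeq2 called Mfrp. In limma's fit with a random litter effect 0 members had an unadjusted p under 0.05 and the median was 0.24. With counts summed per litter 3 members had one, where 81 of 12816 genes did. Without the 3 slices over 200 CPM of Ttr, the log2 fold change of Mfrp was 1.51 and that of Ttr 1.00. Then 0 members were positive at an unadjusted p under 0.05, and the median over the members was -0.05, against 0.48 with these slices. All 3 were exposed and were picked by their Ttr, so a fall in Ttr and in members that follow it was fixed in advance. Without litter IgG3, Mfrp was called. The effect in batch 2 minus that in batch 1 was called for 0 of 33 members, where 0.101% of all genes were called, and 1 member, Mfrp, had an unadjusted p under 0.05 (log2 difference -3.26 ± 1.08). By DESeq2 0 were called, with 3 members at an unadjusted p under 0.05. Over all 12816 genes, 360 had one by edgeR and 379 by DESeq2. The batch 1 estimate of Mfrp rests on levels near the limit of detection in the controls, with 49 counts in all. Cldn2 had 86 counts there. Ttr had 5982, from 10 to 3128 per library.

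With all samples, MARA-AB exposure against controls under the surrogate variable model called 0 of 33 members, where 0.0321% of 12477 genes were called. At an unadjusted p under 0.05, 18 members were positive, where 1281 of 12477 genes had one in either direction. Mfrp had the smallest p among these 18 (1.53 ± 0.45, adjusted p = 0.234). DESeq2 called it, among 16 of 12477 genes. The study did name Mfrp among genes passing its threshold, which it pooled over models with a surrogate variable or principal components. It described Mfrp as higher across all or most patterns. A random litter effect left 2 members at an unadjusted p under 0.05 (limma), where 540 of 12477 genes had one. Against all 24 controls, LDHA/B+CRMP1+STIP1 called 0 members, where 0.0157% of 12700 genes were called. There 16 members were positive at an unadjusted p under 0.05, Mfrp with 2.33 ± 0.52, adjusted p = 0.105, and DESeq2 called Mfrp and Clic6. A random litter effect left 5 at an unadjusted p under 0.05 there and 0 called. STIP1+NSE called 0, where 0.0474% of 12660 genes were called, and CRMP1+GDA called 0, where 0% of 12641 genes were called. In these last 2 no member had an unadjusted p under 0.05 by edgeR, and DESeq2 called 0. Mfrp had log2 fold changes of 0.57 ± 0.45 in STIP1+NSE and -0.24 ± 0.55 in CRMP1+GDA.

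Males and females differed in 0 of 33 members, where 0.0624% of all 12816 genes were called. The median log2 fold change, male minus female, was 0.13, with 29 of 33 positive, 0 members had an unadjusted p under 0.05 by edgeR, and DESeq2 called 0. The direction turned in limma's fit with a random litter effect, with 11 of 33 positive, a median of -0.08, 0 called and 1 lower at an unadjusted p under 0.05. Ttr had a log2 fold change of 0.42 ± 0.42.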

How the data were processed

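The data were gene counts from poly-A RNA of single brain slices. Per the labels and the study's methods, the authors aligned reads with STAR 2.5.4b to rn7 and made the deposited counts with featureCounts. How multi-mapping reads and strand were handled is not given in the sources used here, and 0 count columns lacked a sample. CPM was the count over the library's total, levels were log2(CPM + 0.5), and RPKM used the table's exon lengths. Tests used edgeR 4.0.16 (quasi-likelihood, TMM) in R 4.3.3 with Benjamini-Hochberg adjustment and a threshold of 0.1. The SE given for an edgeR fold change was derived from its test, as its absolute log2 value over the square root of the F statistic. One fit held 7 group means and sex over 71 samples, with genes over 1 CPM in at least 2 samples. The models after the study's used all 24 controls and 1 surrogate variable (sva 3.50.0), with the same filter per pattern and 1 CPM in at least 8 samples for all exposed animals. Alternatives used DESeq2 1.42.0, limma 3.58.1 with the litter as a random effect, counts summed per litter, other filters and covariates, and litters left out in turn. The edgeR fit was also run on simulated counts without litter or batch effects, so that run does not measure its error rate on these data. The members and lists were chosen with earlier results of these data known. Full values were given for 12 genes set by name, up to 8 called members with the smallest p in a comparison, and the 8 genes most like Ttr in batch 2. Replicates were animals, grouped by the labels. Each p-value measures spread between animals, some of them littermates.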

Additional observations from a re-analysis of the deposited data

Results flagged for a closer look

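Of 48 groups of values tested (12 genes in 4 groups of 6 to 9 slices), 9 had a slice set apart from the rest of its group by Dixon's criterion, which flags about 1 group in 20 by chance. Of these 9, 8 were the same CRMP1+CRMP2 slice, a female of litter 9_1, so they are not independent. It held the highest value of its group for Folr1 (38 CPM, next 18), Kcnj13 (14.2 CPM, next 7.79), Aqp1 (56.9 CPM, next 28.1), Cldn1 (24.1 CPM, next 10.5), Cldn2 (31.5 CPM, next 9.11) and Kl (32.4 CPM, next 14.99). It was also highest for Igfbp2 (408 CPM, next 256) and Enpp2 (221 CPM, next 114). The last was Otx2 in a CRMP1+GDA male of litter 9_18, at 28.97 CPM where the next slice of the group had 16.6 CPM.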

How the results depend on the processing

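Of 195 counts of called members under other settings, 177 stayed within 1.5 times the count given and 18 did not. DESeq2 called 1 in CRMP1+CRMP2 against same-batch controls, 1 in LDHA/B+CRMP1+STIP1 in batch 1, 1 in all exposed animals and 2 in LDHA/B+CRMP1+STIP1 against all controls, where edgeR called 0. That last count was 1 without the filter on low counts and 1 with principal components. For CRMP1+CRMP2 against all controls, 21 became 0 with the litter as a random effect, 2 with principal components, 0 with batch and sex, and 3 without the slice highest in Ttr. Of all 12691 genes, 33 were called with the litter, 2394 with principal components and 491 with batch and sex. Leaving out single litters gave 0 to 24 there, 0 to 3 against same-batch controls and 0 to 1 for LDHA/B+CRMP1+STIP1 in batch 1. Leaving out litters in that model, and the slices highest in Ttr, was chosen after seeing the data. Single genes' log2 fold changes were followed for Ttr and Mfrp and, where edgeR called members, for those members. Of these, 798 kept their direction and side of the threshold, 161 lost the threshold, 6 gained it and 13 reversed. Each reversal was in a comparison where neither Ttr nor Mfrp was called. Only these genes were followed there, so reversals of other members could not be seen. Against same-batch controls, Ttr in CRMP1+CRMP2 was -0.046 without the slice highest in Ttr and -0.074 to 1.02 without single litters. Ttr in STIP1+NSE was -0.050 to 0.87 without single litters. In CRMP1+GDA, Ttr was -0.089 and Mfrp -0.015 with counts summed per litter, and without single litters they were -0.72 to 0.75 and -0.46 to 0.77. Against all controls in CRMP1+GDA, Ttr was 0.11 with the litter as a random effect, 0.020 with principal components and 0.13 with batch and sex, and Mfrp was 0.21 with batch and sex. The cause was not tested. No paired analysis was possible because exposure was given to the dam, so no litter held both exposed and control animals, and replicate numbers were given in accession order. Members under 1 CPM rest on fewer than 36.2 counts.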
